A study of Bos taurus with 46 samples.

Results

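The cell cycle and proliferation genes described here are 45 of the 30675 genes in the NCBI count table, chosen by symbol as a list of genes that cells switch on when they replicate DNA and divide. All 45 symbols were present, and all 45 passed the filter on low counts in every comparison. They were measured by RNA sequencing in circulating leukocytes of 23 pregnant Angus crossbred heifers, each bled at D55 and again at D105 of pregnancy, which gave 46 libraries. The AI group (8 heifers) carried fetuses conceived by artificial insemination and served as controls. The IVP-Normal group had 6 heifers and the IVP-LOS group had 9. Both of these carried fetuses from embryos produced in vitro from Angus or Angus-cross oocytes and the semen of 1 Brahman male, transferred in pairs. LOS is large offspring syndrome, an overgrowth of the fetus, and IVP-LOS fetuses were those at or above a weight limit set from the AI fetuses. The buffy coat was treated with a red cell lysis buffer, so each library holds a mixture of white blood cells with some platelet and red cell RNA (*HBB* and *TUBB1* were above 0 in all 46 libraries). Fewer dividing cells and less of these RNAs per dividing cell therefore cannot be told apart.

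Most circulating leukocytes are resting cells that have left the cell cycle. A minority, such as activated lymphocytes and plasmablasts, still divide, and their transcripts give bulk blood its low proliferation signal. Before DNA synthesis, E2F factors switch on the genes for the MCM helicase, its loaders and the enzymes that make nucleotides. Later, the *FOXM1* and MuvB-bound programme switches on the mitotic cyclins, the kinases of mitosis, the kinetochore and the spindle motors.

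The reads on genes numbered 18692653 to 24502012 in a library, and the 45 genes held 0.0574% to 0.156% of them (median 0.104%). The lowest count of any of the 45 in a library was 22 reads (*CCNB2* in heifer 604 on D105). Every gene was thus measured in every library, with a wider counting error for the lowest ones. The pan-leukocyte markers *PTPRC*, *CD53* and *CORO1A* were present in all 46 libraries. The labels carry a set name, which is BACKUP for AI and IVP-LOS on D105 and New for everything else. Within AI and within IVP-LOS, day and set therefore cannot be told apart. The legend of the study's clustering places the D55 blood in winter and the D105 blood in summer. Season may thus not be separable from day in any of the groups. The D105 libraries of heifers 604 and 664, both IVP-LOS, stood apart in the share of reads on no gene. This share, taken only of the reads on a gene or on no gene, was 38.6% and 36.7%. It was 24.3% to 31.1% in the other 21 D105 libraries. On D55 the same heifers had 26.2% and 24.3%, inside the range of the others (23.6% to 31.1%). These heifers carried the largest IVP-LOS fetuses, and their libraries had also come apart from the rest in the study's clustering of the same data. Comparing them with the others on D105 therefore rests in part on a choice made from these libraries.

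The 45 genes rose and fell together from heifer to heifer. After the mean of each group and day was subtracted, the median Pearson correlation over the 990 pairs of genes was 0.75 over the 46 libraries, and 93.4% of pairs were positive. Over all pairs of the 13857 genes with a mean of at least 1 CPM (counts scaled to library size), the median was -0.001. The 2 libraries of a heifer are not independent and all genes share the library's scaling, so these values describe the libraries and carry no p. Without heifers 604 and 664 the median over the 990 pairs was again 0.75.

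*KIF11*, a motor that separates the spindle poles, followed the mean of the other 44 genes most closely (r = 0.97). *RRM2*, a subunit of ribonucleotide reductase (r = 0.97), *TOP2A*, the topoisomerase that untangles chromosomes (r = 0.96), and *KIF20A*, a motor of cytokinesis (r = 0.96), came next. In all, 21 genes had r above 0.9 and 43 had r above 0.45. The lowest of those 43 were *TK1*, the thymidine salvage kinase (r = 0.48), and *ANLN*, a scaffold of the cleavage furrow (r = 0.49). The replication genes *MCM5* (r = 0.74), *MCM6* (r = 0.75) and *PCNA* (r = 0.78) were intermediate.

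The exceptions were *CDC45*, a part of the replicative helicase, and *PLK1*, a mitotic kinase. *CDC45* had r = -0.05 and *PLK1* r = -0.22 with the mean of the other genes, and without heifers 604 and 664 these were -0.005 and -0.16. Neither gene was weakly measured. *CDC45* ranged from 12.6 to 23.9 CPM with a median of 16.5, and *PLK1*, which overlaps the gene *ERN2*, ranged from 26.4 to 58.3 CPM with a median of 37.5. Both proteins are known to act in dividing cells, but in these leukocytes their mRNA levels did not follow the rest of the list.

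**Figure D1:**
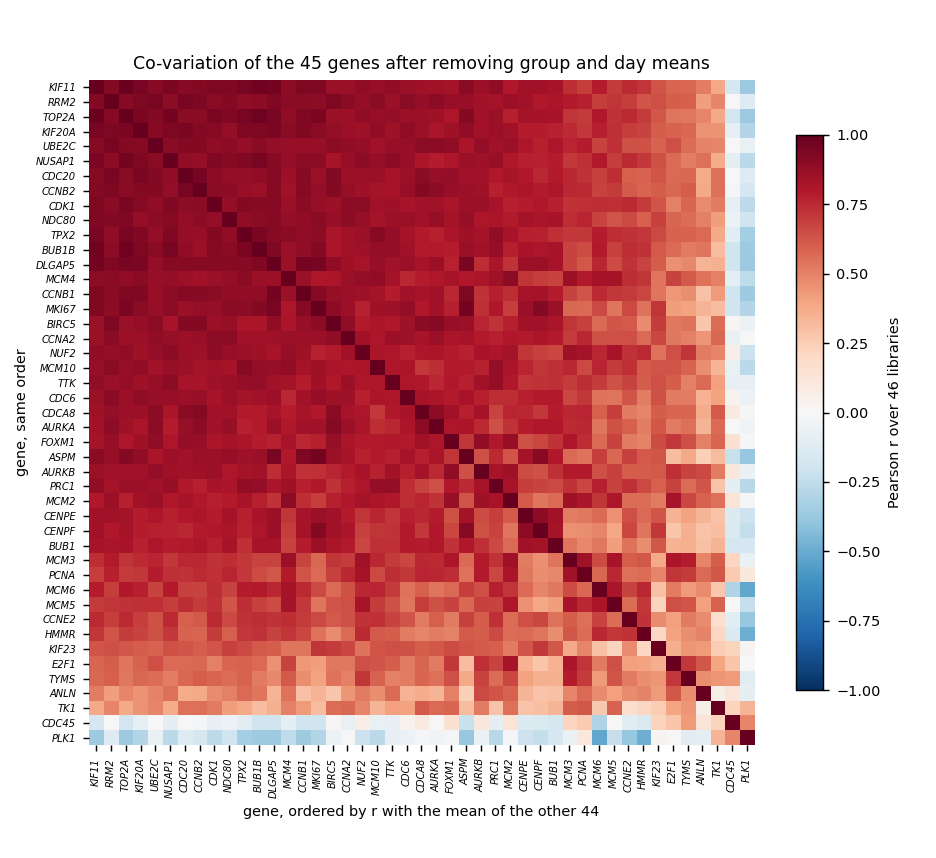
Pearson correlation between every pair of the 45 genes over the 46 libraries, after the mean of each group and day was removed from log2(CPM + 1), with both axes ordered by the correlation of each gene with the mean of the other 44. Red is positive and blue negative, and the bottom and right edges show CDC45 (r = -0.05) and PLK1 (r = -0.22) apart from the rest.

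Outside the list, the 10 genes that followed its mean most closely over the 46 libraries were *PCLAF* (r = 0.97), *SPAG5* (r = 0.97), *CDCA2* (r = 0.95), *KIF4A* (r = 0.95), *HJURP* (r = 0.95), *KIF18B* (r = 0.95), *E2F8* (r = 0.94), *NCAPG2* (r = 0.94), *ESPL1* (r = 0.93) and *FBXO5* (r = 0.93). The median r over the 13812 genes compared was 0.01. *PCLAF* binds *PCNA*, *HJURP* loads the centromeric histone, and *ESPL1* is separase, which cuts cohesin at anaphase. Of the marker lists of blood cells, the summed level of the plasma cell or plasmablast markers followed the mean of the 45 genes most closely (r = 0.54), and without heifers 604 and 664 it was 0.54 as well. The other lists lay between -0.49 (erythroid) and 0.33 (monocyte).

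A score of each library, the mean of log2(CPM + 1) over the 45 genes, was used to describe the heifers. No p is given for it. On D55 the score was 4.14 ± 0.26 (SD, n = 8) in the AI group, 3.98 ± 0.43 (n = 6) in the IVP-Normal group and 4.21 ± 0.35 (n = 9) in the IVP-LOS group. On D105 it was 4.06 ± 0.27 in the AI group, 3.93 ± 0.20 in the IVP-Normal group and 3.99 ± 0.38 in the IVP-LOS group. The groups overlapped on both days, and the spread within a group was larger than the distance between the group means. The lowest D55 score was that of IVP-Normal heifer 628 (3.21) and the highest that of heifer 664 (4.66).

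From D55 to D105 the score fell in 14 of 23 heifers. The mean difference was -0.08 ± 0.14 in the AI group (lower in 5 of 8 heifers), -0.05 ± 0.31 in the IVP-Normal group (lower in 4 of 6) and -0.23 ± 0.47 in the IVP-LOS group (lower in 5 of 9). Without 604 and 664 the IVP-LOS difference was -0.01 ± 0.22, lower in 3 of 7 heifers. With library size in place of TMM scaling the AI difference was -0.12 ± 0.14, lower in 7 of 8 heifers, and the IVP-Normal difference -0.08 ± 0.30. Without heifer 628 the IVP-Normal difference was -0.15 ± 0.19, and without 519 or 633 it was 0.006 or 0.005, so its direction rested on single heifers. Heifer 664 went from the highest score of the 23 on D55 to the second lowest on D105 (4.66 to 3.50), and heifer 604 went from the middle to the lowest (4.18 to 3.37). The next largest fall was that of IVP-LOS heifer 656 (4.51 to 4.07), in which 44 of the 45 genes were lower on D105. The largest rise was that of heifer 628 (3.21 to 3.68).

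**Figure D2:**
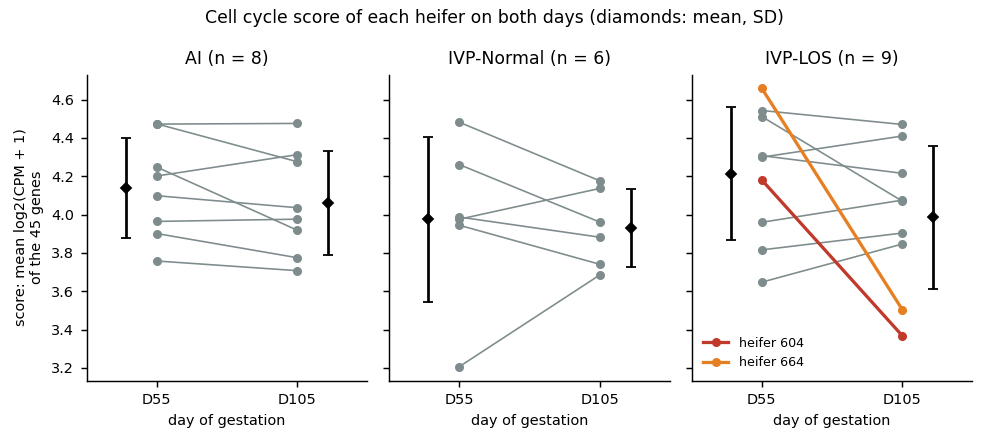
Score of the 45 cell cycle genes (vertical axis, mean log2(CPM + 1)) in each heifer on D55 and D105, in 1 panel per group, with a line joining the 2 libraries of a heifer and diamonds for the group mean with its SD. Heifers 604 and 664 (coloured lines) end at 3.37 and 3.50 on D105, below the other 21 heifers, and the next largest fall is 0.44, in heifer 656.

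Apart from these heifers, an animal high on D55 tended to be high on D105. The correlation of the score between days was r = 0.78 (Spearman's rho = 0.80) over 21 heifers and r = 0.43 (rho = 0.53) over all 23. Over all 23 heifers, the correlation of single genes between days had a median of 0.42 over the 45 genes, against 0.39 over all 13857 genes. Without 604 and 664 it was 0.65 over the 45 genes and 0.40 over all genes. A test was run for 5 genes, each by 100000 permutations of the heifers, two-sided, with Benjamini-Hochberg adjustment over the 5. *MCM2*, a helicase subunit, had r = 0.58 (permutation p = 0.00347, adjusted 0.00867) and rho = 0.68 (p = 0.0005, adjusted 0.0025). *PCNA*, the clamp of the DNA polymerases, had r = 0.58 (permutation p = 0.00326, adjusted 0.00867) and rho = 0.57 (p = 0.00526, adjusted 0.0114). *CDK1*, the kinase that starts mitosis, had r = 0.52 (permutation p = 0.0101, adjusted 0.0169) and rho = 0.56 (p = 0.00687, adjusted 0.0114). *TOP2A* had r = 0.42 (permutation p = 0.0457, adjusted 0.0571) and rho = 0.41 (p = 0.0565, adjusted 0.0591), and *MKI67*, the classical marker of proliferating cells, had r = 0.33 (permutation p = 0.128, adjusted 0.128) and rho = 0.40 (p = 0.0591, adjusted 0.0591).

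Without the 2 heifers farthest from the D55 median, r was 0.76 for *MCM2*, 0.57 for *PCNA*, 0.41 for *CDK1*, 0.25 for *TOP2A* and 0.23 for *MKI67*; no p was computed for these. Without 604 and 664, r was 0.68, 0.61, 0.79, 0.70 and 0.65 in the same order. Among the 17 heifers whose D105 library was of the set BACKUP, r was 0.54 for *MCM2*, 0.70 for *PCNA*, 0.36 for *CDK1*, 0.32 for *TOP2A* and 0.32 for *MKI67*. Among the 6 heifers with both libraries in the set New, it was 0.72, 0.28, 0.92, 0.71 and 0.40 in that order.

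The level of *MKI67* on D55 ranged from 88.4 to 246 CPM (median 176) in the AI group, from 54.8 to 240.5 CPM (median 147) in the IVP-Normal group and from 86.2 to 288 CPM (median 199) in the IVP-LOS group. On D105 it ranged from 101.99 to 231 CPM (median 148), from 87.0 to 135 CPM (median 107.4) and from 49.5 to 285 CPM (median 148) in the same order. The groups overlapped on both days. *PCNA* spread much less, from 48.9 to 90.5 CPM over all libraries of D55 and from 62.1 to 90.1 CPM over those of D105. *TOP2A* ranged from 12.8 to 78.4 CPM on D55 and from 18.0 to 70.5 CPM on D105. *CDK1* ranged from 5.62 to 17.0 CPM on D55 and from 6.86 to 14.9 CPM on D105, and *MCM2* from 26.7 to 63.5 CPM and from 25.4 to 49.6 CPM. The lowest *MKI67*, *TOP2A* and *CDK1* levels of D55 were all those of heifer 628, and their lowest levels of D105 were all those of heifers 604 or 664.

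**Figure D3:**
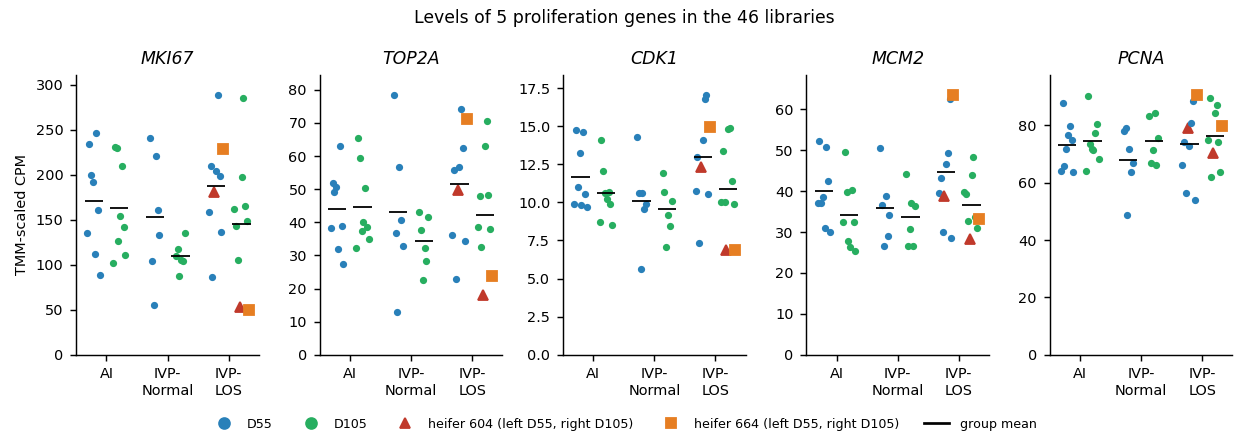
CPM after TMM scaling of MKI67, TOP2A, CDK1, MCM2 and PCNA (1 panel each, vertical axis from 0) in the 46 libraries, by group, with D55 on the left and D105 on the right of each group and a bar for the group mean. Heifers 604 (triangles) and 664 (squares) are at 52.5 and 49.5 CPM of MKI67 on D105, below all other points, but within the other points for MCM2 and PCNA.

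The first comparison asked whether the genes changed between D55 and D105 within a group. By edgeR's quasi-likelihood F-test at an FDR of at most 0.05, 0 of the 45 genes passed in the AI group, where 9.95% of all genes passed, 0 in the IVP-Normal group (2.45% of all genes) and 0 in the IVP-LOS group (0.251%). At an unadjusted p under 0.05 there were 4 genes in the AI group, all lower on D105, 3 in the IVP-Normal group, all higher, and 3 in the IVP-LOS group, of which 2 were lower. Of all genes, 22.6%, 13.3% and 12.6% had such a p in the same order, so the 45 genes were not above the background. DESeq2 and edgeR's likelihood ratio test also called 0. The median log2 fold change of the 45 genes was -0.08 in AI, -0.11 in IVP-Normal and -0.24 in IVP-LOS heifers.

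In the AI group the smallest p were those of *CCNE2*, a cyclin of entry into S phase, with a log2 fold change of -0.27 (SE 0.10, FDR 0.13), and *ANLN* (-0.28, SE 0.11, FDR 0.137). *CCNE2* was also first in the IVP-LOS group (-0.35, SE 0.12, FDR 0.231), followed by *HMMR*, a spindle protein (-0.28, SE 0.11, FDR 0.277). In the IVP-Normal group they were *PLK1* (0.41, SE 0.15, FDR 0.24) and *CDC6*, which loads the MCM helicase (0.58, SE 0.23, FDR 0.276). *MKI67* had log2 fold changes of -0.06 (SE 0.22), -0.48 (SE 0.27) and -0.36 (SE 0.29) in the 3 groups, and *PCNA* 0.04 (SE 0.08), 0.12 (SE 0.12) and 0.05 (SE 0.10). None of these passed.

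Both libraries of a heifer come from 1 animal, and with heifer as a replicate block 4 of the 45 genes passed in the AI group, all lower on D105, where 6.89% of all genes were called lower. They were *CENPF*, a kinetochore protein, with a log2 fold change of -0.24 (SE 0.06, FDR 0.0219), *CCNA2*, the cyclin of S phase and entry into mitosis (-0.33, SE 0.09, FDR 0.0306), *E2F1* (-0.22, SE 0.06, FDR 0.0342) and *MCM2* (-0.22, SE 0.06, FDR 0.0368). On the log2(CPM + 1) scale *E2F1* was lower in 8 of 8 AI heifers and the other three in 7 of 8. The share of 4 in 45 is near that of all genes. With the block, 0 of the 45 genes passed in the IVP-Normal group (1.01% of all genes called lower). In the IVP-LOS group 0 passed (0.29%). At an unadjusted p under 0.05 there were 5 (3 higher and 2 lower) and 3 (all lower) in the same order. The share of all genes at that p was not computed with the block. Without the block it was 13.3% and 12.6%. Between the same days in the AI group, 4 of 4 mature neutrophil markers measured passed as higher (median log2 fold change 2.76), and their part in the values of the 45 genes was not tested.

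The second comparison asked whether the groups differed on a day. None of the 45 genes passed in the 3 pairwise comparisons on D55, nor in the 3 on D105, by the quasi-likelihood test, the likelihood ratio test or DESeq2, and with the quasi-likelihood test 0% of all genes passed in each of the 6. At an unadjusted p under 0.05 the quasi-likelihood test gave 1 gene for IVP-Normal against AI (9.92% of all genes), 1 for IVP-LOS against AI (7.74%) and 0 for IVP-LOS against IVP-Normal (5.19%) on D55. On D105 it gave 3 (9.57% of all genes), 0 (5.76%) and 0 (3.24%). The D55 log2 fold change of IVP-LOS against IVP-Normal was positive for 45 of 45 genes, with a median of 0.26 and a range from 0.03 to 0.48, while 49.1% of all genes were negative, with a median of 0.003. Since the genes vary together, these are not 45 separate observations. IVP-Normal heifer 628 had a D55 score of 3.21, while the next lowest of its group, heifer 669, had 3.94. This comparison was not run without heifer 628.

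On D55, *PLK1* had the smallest p both for IVP-Normal against AI (log2 fold change -0.33, SE 0.12, FDR 0.4932) and for IVP-LOS against AI (-0.25, SE 0.09, FDR 0.636). *CENPF* was next in the first of these (-0.34, SE 0.19, FDR 0.539), and *KIF20A* in the second (0.35, SE 0.23, FDR 0.717). For IVP-LOS against IVP-Normal they were *MCM3* (0.30, SE 0.14) and *CDK1* (0.38, SE 0.19), both at FDR 0.839.

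On D105, *MKI67* (-0.57, SE 0.19) and *CENPF* (-0.44, SE 0.17) had the smallest p for IVP-Normal against AI, both at FDR 0.514. In that comparison, and in IVP-LOS against IVP-Normal on D105, the groups also differ in library set, which cannot be told apart from the group. For IVP-LOS against AI, both of the set BACKUP, the first were *CDC6* (-0.38, SE 0.23) and *ANLN* (0.27, SE 0.18), both at FDR 0.754, and for IVP-LOS against IVP-Normal *MCM3* (0.18, SE 0.10) and *CENPF* (0.41, SE 0.23), both at FDR 0.999.

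The change between days was also compared between groups by an interaction term, in fits without heifer as a replicate block. IVP-Normal kept the set New on both days, while the other groups changed set. In the tests with IVP-Normal, group and change of set therefore cannot be told apart. None of the 45 genes passed in any of the 3 tests by the quasi-likelihood test, edgeR's likelihood ratio test or DESeq2, and by the quasi-likelihood test 0% of all genes passed in each. Only *PLK1*, for IVP-Normal against AI, had an unadjusted p under 0.05 (difference in log2 fold change 0.42, SE 0.17, FDR 1). For IVP-LOS against AI the smallest p were those of *PLK1* (0.28, SE 0.15, FDR 0.909) and *NUSAP1*, a spindle protein (-0.45, SE 0.31, FDR 0.913), and for IVP-LOS against IVP-Normal those of *CDC6* (-0.60, SE 0.36) and *FOXM1* (-0.32, SE 0.34), both at FDR 1.

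The third comparison set heifers 604 and 664 against the other 21. On D105, 27 of the 45 genes were lower in the pair and 0 higher, where 9.48% of all 16841 genes were called lower and 21.1% were called in either direction. The log2 fold change was negative for 42 of the 45 genes and 51.6% of all genes, with a median of -0.80 against -0.02. As this pair was chosen in part on how these libraries clustered, its p-values on D105 and for the day change are not independent of that choice. The 27 genes are cyclins, mitotic kinases, kinetochore proteins and spindle motors for the most part, and the MCM helicase, *PCNA* and the G1 to S regulators are for the most part among the other 18. On D55, with 0.0179% of all genes passing, 0 of the 45 genes differed by the quasi-likelihood test, the likelihood ratio test or DESeq2.

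The D105 call depended on having both heifers. Without 604 or without 664, few or none of the genes passed, with the lone heifer assumed to vary like the others. The median log2 fold change was -0.79 without 604 and -0.88 without 664. Against the other 7 IVP-LOS heifers alone 18 genes passed, all lower (3.41% of all genes called lower), and within the set BACKUP 28 passed, all lower (13.2% of all genes).

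The largest change was that of *ASPM*, which organises the spindle poles. It was at 2.15 CPM in 604 and 2.73 CPM in 664 on D105, against 4.38 to 18.6 CPM (median 9.83) in the other 21, a log2 fold change of -2.19 (SE 0.48, FDR 0.00448). *CCNB1*, the cyclin that drives entry into mitosis, was at 1.34 and 1.91 CPM against 2.87 to 11.4 CPM (median 5.17), a log2 fold change of -1.93 (SE 0.46, FDR 0.00705). Its relative *CCNB2* was at 1.28 and 2.02 CPM against 3.13 to 7.69 CPM (median 4.61), a log2 fold change of -1.61 (SE 0.35, FDR 0.00435). For all of these, both heifers were below the lowest of the others. Their levels in 604 and 664 rest on few reads, with a wider counting error. These were 37 and 50 for *ASPM*, 23 and 35 for *CCNB1* and 22 and 37 for *CCNB2*.

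*MKI67* was at 52.5 CPM in 604 and 49.5 CPM in 664, against 87.0 to 285 CPM (median 142) in the others. This was a log2 fold change of -1.60 (SE 0.37, FDR 0.00641), to 0.33 times the level of the others, and again the groups did not overlap. *DLGAP5*, a spindle protein, was at 1.803 and 2.68 CPM against 3.38 to 11.4 CPM (log2 fold change -1.56, SE 0.41, FDR 0.0115). *KIF20A* was at 1.86 and 3.23 CPM against 3.94 to 8.93 CPM (-1.37, SE 0.32, FDR 0.00624), and *KIF11* at 5.18 and 7.93 CPM against 8.47 to 24.1 CPM (-1.26, SE 0.34, FDR 0.0127).

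*CDC6* had the smallest p of the list and is the clearest of the replication genes. It was at 3.90 and 3.99 CPM against 6.78 to 14.1 CPM (median 10.1), a log2 fold change of -1.38 (SE 0.27, FDR 0.00256). *CDC20*, which activates the anaphase-promoting complex, was at 3.43 and 4.48 CPM against 5.16 to 14.9 CPM (-1.32, SE 0.34, FDR 0.0111). *BIRC5*, or survivin, a chromosomal passenger, was at 4.30 and 3.66 CPM against 4.76 to 13.4 CPM (-1.18, SE 0.29, FDR 0.00791). *CENPF* (-1.09, SE 0.29, FDR 0.0119) and *BUB1*, a kinase of the spindle checkpoint (-0.96, SE 0.23, FDR 0.00752), complete the 12 genes with the smallest p.

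The other 15 genes that passed had log2 fold changes from -1.16 to -0.57 and FDR from 0.0135 to 0.0462. *TOP2A*, one of them, was at 18.0 and 23.7 CPM against 22.6 to 70.5 CPM (log2 fold change -1.08, SE 0.32, FDR 0.0215), so 664 lay inside the range of the others. *CDK1*, another, was at 6.86 and 6.89 CPM against 7.09 to 14.9 CPM (-0.68, SE 0.21, FDR 0.0287), just below the lowest other heifer, 628. Both heifers were below the median of the others for 27 of the 27 genes that passed, and below the lowest other heifer for 20 of them, which was so for 6.21% of all genes. Since these are levels of the same contrast, the 20 describe the 27 and are no further test.

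**Figure D4:**
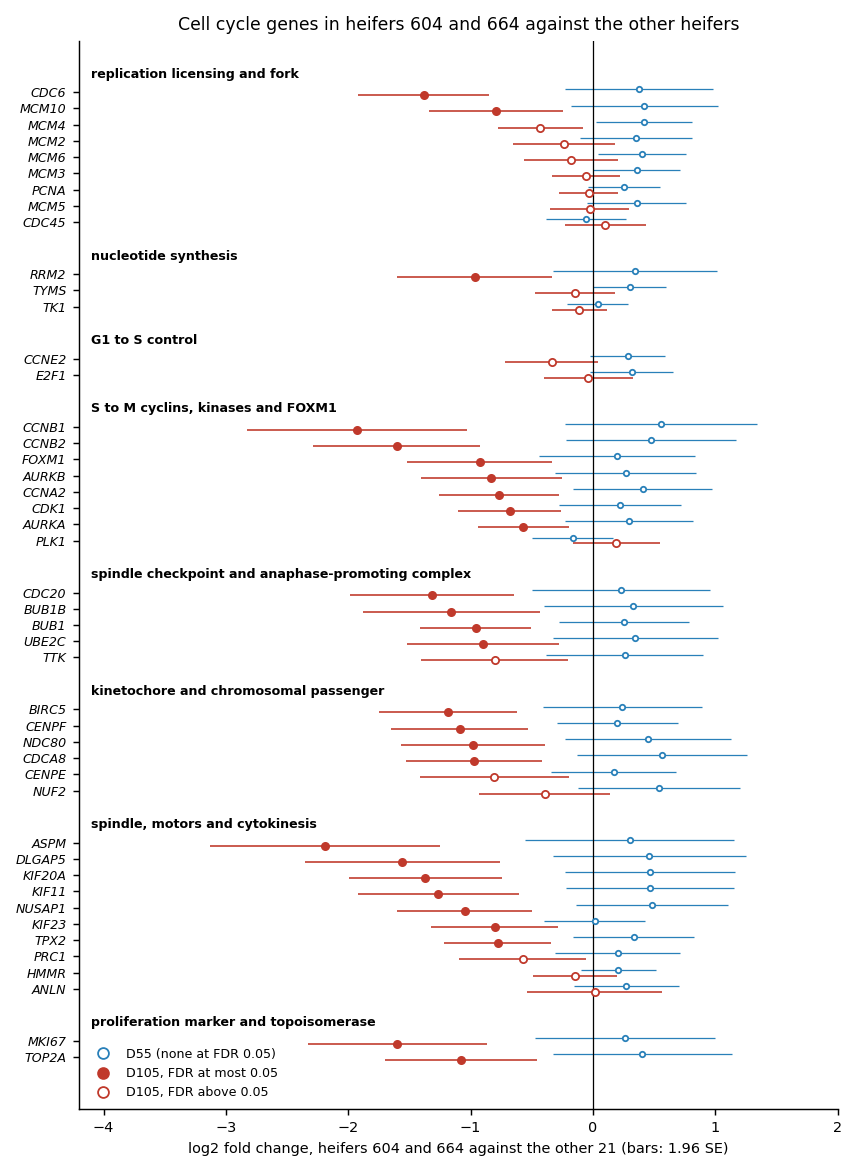
Log2 fold change of heifers 604 and 664 against the other 21 heifers for each of the 45 genes (horizontal axis, bars for the approximate 95% interval), grouped by role, on D55 (blue, open) and D105 (red, filled where the FDR is at most 0.05). On D105 the filled points run from -0.57 to -2.19 and lie mostly in the mitotic roles. MCM2, MCM3, MCM5, MCM6 and PCNA lie between -0.24 and -0.03. MCM4, which did not pass either, was at 31.5 CPM in 604 and 38.9 CPM in 664, against a median of 45.1 CPM in the others. On D55 43 of 45 points are above 0.

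By role, 7 of 8 S to M cyclins, kinases and *FOXM1* passed as lower (all but *PLK1*), with a median log2 fold change of -0.80. Of the spindle checkpoint and anaphase-promoting complex genes 4 of 5 passed (median -0.96), of the kinetochore and chromosomal passenger genes 4 of 6 (median -0.98), and of the spindle, motor and cytokinesis genes 7 of 10 (median -0.93). Both *MKI67* and *TOP2A* passed. Of the replication licensing and fork genes 2 of 9 passed, *CDC6* and *MCM10*, with a median of -0.18. Of the nucleotide synthesis genes 1 of 3 passed, *RRM2*, and of the G1 to S genes 0 of 2 passed. The difference between roles was not tested.

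Among the replication genes that did not pass, *MCM2* was at 28.4 CPM in 604 and 33.2 CPM in 664 against 25.4 to 49.6 CPM (median 33.7), a log2 fold change of -0.24 (SE 0.21, FDR 0.425). *PCNA* was at 70.5 and 79.7 CPM against 62.1 to 90.1 CPM (median 74.3), a log2 fold change of -0.04 (SE 0.12, FDR 0.846) with an approximate 95% interval from -0.28 to 0.20. *MCM3* (-0.06, SE 0.14), *MCM5* (-0.03, SE 0.16) and the G1 to S gene *E2F1* (-0.04, SE 0.19) were as close to 0. *MCM4* lay lower, at 31.5 CPM in 604, below all 21 others (32.6 to 61.9 CPM, median 45.1). It was at 38.9 CPM in 664. *MCM6* was at 36.5 CPM in 604 and 56.8 CPM in 664 against 29.6 to 65.2 CPM. *PLK1*, which did not vary with the other genes, was at 58.3 CPM in 604, above all 21 others (30.7 to 56.5 CPM), and at 37.4 CPM in 664. Its log2 fold change was 0.19 (SE 0.18, FDR 0.448).

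On D55 the log2 fold changes of the pair lay on the other side of 0, with 664 high and 604 near the middle. Heifer 604 was below the median of the others in 14 of the 45 genes and 664 in 1. The log2 fold change was positive for 43 of 45 genes, with a median of 0.31, where 51.1% of all genes were negative and their median was -0.006. The exceptions were *PLK1* (-0.17) and *CDC45* (-0.06). Heifer 664 had the highest level of all 23 heifers in 20 of the 45 genes, while 604 had the highest in 0. The smallest p were those of *MCM6* (0.40, SE 0.18) and *MCM4* (0.42, SE 0.20), both at FDR 0.947, and 2 genes had an unadjusted p under 0.05, as had 4.72% of all genes. *MKI67* was at 181 CPM in 604 and 228 CPM in 664 on D55, against 54.8 to 288 CPM (median 161) in the others. Without 604 the median log2 fold change was 0.58 and without 664 it was 0.08.

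The difference between days was tested directly, after the D105 result was known, as the change from D55 to D105 in 604 and 664 against that of the other 21, with heifer as a replicate block. It was negative and passed for 35 of the 45 genes and passed as positive for 0, where 7.89% of all genes were called lower. *CCNB2* had the smallest p (difference in log2 fold change -2.12, SE 0.31, FDR 0.000343), followed by *KIF20A* (-1.89, SE 0.30, FDR 0.000589), *KIF11* (-1.76, SE 0.28, FDR 0.000608), *TPX2*, which activates *AURKA* on the spindle (-1.11, SE 0.19, FDR 0.000874), and *NUSAP1* (-1.54, SE 0.26, FDR 0.000876). *MKI67* followed with -1.89 (SE 0.32, FDR 0.00111). *ASPM* (-2.54, SE 0.45, FDR 0.00143) and *CCNB1* (-2.52, SE 0.45, FDR 0.00156) had the largest differences. *MCM4* (-0.86), *DLGAP5* (-2.07), *CDC6* (-1.78) and *RRM2* (-1.33) complete the 12 genes with the smallest p. Within the animals *MKI67* fell by 1.76 in 604 and by 2.18 in 664 on the log2(CPM + 1) scale.

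In this test, 5 of the 9 replication genes passed. *MCM2* was among them, with -0.57 (SE 0.19, FDR 0.0404), and *TOP2A* (-1.53, SE 0.30, FDR 0.00283) and *CDK1* (-0.92, SE 0.18, FDR 0.00337) passed too. *PCNA* did not pass, with -0.30 (SE 0.13, FDR 0.118). *TYMS*, *MCM3*, *HMMR*, *MCM5*, *E2F1*, *PLK1*, *TK1*, *ANLN* and *CDC45* were the others that did not. Without the replicate block 6 genes passed as lower (0.608% of all genes). With the block there were 15 without 604 (0.288% of all genes) and 15 without 664 (2.18%).

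The other cell cycle genes and the brakes of the cycle were looked at in the same way. Of the 50 other cell cycle genes, 11 were lower in 604 and 664 on D105 and 1 was higher, with a median log2 fold change of -0.18. Of all genes, 9.48% were called lower and 21.1% in either direction. The 3 with the smallest p were *CENPA*, the centromeric histone (-1.12, SE 0.25, FDR 0.0053), *GINS1*, a part of the replicative helicase (-0.66, SE 0.18, FDR 0.013), and *ESPL1* (-1.20, SE 0.32, FDR 0.0135). The gene that was higher was *INCENP*, a chromosomal passenger (0.43, SE 0.13, FDR 0.0244), named after its value was seen. In the same comparison 3 of the 18 brake and quiescence genes passed, all lower, beside the 9.48% of all genes called lower. They were *RB1* (-0.61, SE 0.14, FDR 0.00509), *RBL1* (-0.63, SE 0.18, FDR 0.02) and *RBL2* (-0.44, SE 0.15, FDR 0.0416), the 3 genes of the retinoblastoma family, which hold E2F factors in check. In the direct test of the change between days, 12 of the 50 were lower and 0 higher. Of the 17266 genes tested, 7.89% were called lower there and 1523 genes higher. The first of the 12 were *CENPA* (-1.47, SE 0.24), *E2F8* (-1.50, SE 0.25) and *ESPL1* (-1.51, SE 0.29). Of the brakes 3 were lower, *RBL1* (-0.84, SE 0.18), *RB1* (-0.65, SE 0.17) and *RBL2* (-0.52, SE 0.17), and 1 was higher, *BTG1*, an antiproliferative gene (0.89, SE 0.26, FDR 0.0231).

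Between D55 and D105 in the AI group, where 9.95% of all genes passed, 1 of the 50 other cell cycle genes did. It was *E2F3* (0.68, SE 0.13, FDR 0.002, higher on D105). Of the brakes, 2 were higher and 2 lower. The smallest p were those of *FOXO3*, a factor of quiescence (0.41, SE 0.10, FDR 0.0119), *CCNG2*, an unconventional cyclin (-0.38, SE 0.09, FDR 0.0126), and *CDKN2D*, a *CDK4* and *CDK6* inhibitor (0.35, SE 0.10, FDR 0.0293). In the other group, day and interaction comparisons, and for the pair on D55, 0 genes of either list passed by the quasi-likelihood test.

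RNA levels of blood cell markers also differed in the D105 libraries of 604 and 664. Mature neutrophil markers were lower in 4 of the 4 measured (median log2 fold change -3.45), with a summed level of 81.2 CPM in 604 and 74.4 CPM in 664 against 103.3 to 1928 CPM in the others. Monocyte markers were lower in 4 of 6 (median -2.30), at 271 and 245 CPM against 344 to 2128 CPM. Platelet markers were higher in 4 of 5 (median 2.16), at 5906 and 797 CPM against 254 to 1500 CPM. Heifer 604 was above all the others for each of these 5, while 664 was inside their range for each. B cell markers were higher in 3 of 6 (median 0.81), at 5129 and 6530 CPM against 1534 to 5835 CPM. T cell markers were lower in 1 of 6, at 1233 and 894 CPM against 851 to 1685 CPM, and natural killer markers in 0 of 6. Erythroid markers were higher in 1 of 5 tested, at 606 and 144 CPM against 15.2 to 155 CPM, with *HBA* at 0 in 44 libraries and *SLC4A1* in 38. On D55, 0 markers of any of these lists passed for the pair, with 2 at an unadjusted p under 0.05.

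The plasma cell or plasmablast markers, which went with the 45 genes over all libraries, were mixed in this comparison. *JCHAIN* (-1.05, SE 0.37, FDR 0.044) and *MZB1* (-1.20, SE 0.41, FDR 0.0394) were lower, *DERL3* (1.36, SE 0.26, FDR 0.0022) was higher, and 3 of 6 did not pass. Their summed level was 597 CPM in 604 and 709 CPM in 664, inside the 534 to 1187 CPM of the others. The part of blood makeup and of the share of reads on no gene in the lower cell cycle genes was not tested. Over the other 21 heifers on D105, the score and the share of reads on no gene had r = -0.34 (rho = -0.29), and over the 23 heifers on D55 r = -0.58 (rho = -0.60), given as a description.

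Of the 45 genes, 15 overlap another gene in the RefSeq annotation of assembly ARS-UCD2.0, among them *CDK1*, *CCNA2*, *CCNB2*, *KIF20A*, *NUSAP1*, *TYMS* and *PLK1*, which overlaps *ERN2*. The counts were made on ARS-UCD1.2, and their strand setting is not stated. The effect of these overlaps on the counts was not tested.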

How the data were processed

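Leukocyte RNA of 23 heifers on D55 and D105 was sequenced. The authors trimmed the reads, aligned them to ARS-UCD1.2 with HISAT2 2.1.0 and counted them on NCBI RefSeq genes with HTSeq in union mode, and deposited raw counts. The strand setting is not given in the sources used here. Between 18692653 and 24502012 reads per library fell on genes. Reads on no gene, 23.6% to 38.6% of the reads on a gene or on no gene, stayed out of library sizes.

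From these counts, edgeR 4.0.16 (R 4.3.3) was run with TMM scaling, filterByExpr at a minimum count of 10 and the quasi-likelihood F-test on the libraries of the groups compared. P-values were adjusted by Benjamini-Hochberg over all genes tested, with an FDR limit of 0.05. The SE is the log2 fold change over the root of F, and intervals are 1.96 SE on each side. CPM are TMM-scaled, and the score used a pseudocount of 1. Each heifer is 1 biological replicate per day, and no library was a duplicate of another (highest r within a group 0.983 to 0.986).

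Day comparisons were also fitted with heifer as a replicate block. The deviations of the 2 libraries of a heifer from their group means had a mean r of 0.54 (lowest 0.29, above 0.1 in 23 of 23), against -0.02 between different heifers, so heifer pairs the libraries. The direct test of the day change in 604 and 664 used this block.

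The 45 genes and all lists were chosen with earlier results of these data known. The genes named are those with the smallest p in each comparison (12 in the comparisons of 604 and 664, 2 otherwise, 3 for the other lists) and *MKI67*, *TOP2A*, *CDK1*, *MCM2* and *PCNA*. The tests of these 5 between days and the comparison of 604 and 664 with IVP-LOS heifers alone were added after the data were seen. DESeq2 1.42.0, edgeR's likelihood ratio test, other scalings and filters, and fits without single heifers were the alternatives. The scripts were tested on simulated counts.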

Additional observations from a re-analysis of the deposited data

Results flagged for a closer look

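The change between days differed between heifers 604 and 664 and the other 21 heifers in 35 of the 45 cell cycle genes, all lower. The test was an interaction term with heifer as a replicate block, and it called 7.89% of all genes lower. It was added after the D105 result was known, for a pair chosen in part from how these libraries clustered. Fewer of the 45 genes passed without the block. Among the genes followed throughout, the difference in log2 fold change was -1.89 for *MKI67*, -1.53 for *TOP2A*, -0.92 for *CDK1* and -0.57 for *MCM2*. No explanation of these values was tested.

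In the groups of 4 to 10 heifers, 39 sets of values of the score and of these genes were examined by Dixon's limit. It looks for a sample far from the others, and 0 passed it. The limit uses the gap to the nearest value, so 2 low samples side by side can hide each other. Heifers 604 and 664 lay so on D105, with scores of 3.37 and 3.50.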

How the results depend on the processing

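The count of genes passing in the day, group and interaction comparisons of the 3 groups was 0 under each alternative that was run, except that with heifer as a replicate block 4 genes passed between days in the AI group. For heifers 604 and 664 on D105, between 23 and 28 of the 45 genes passed under the likelihood ratio test, DESeq2, upper-quartile scaling, no filter and within the set BACKUP, and 18 against the other 7 IVP-LOS heifers. Leaving out 637 gave 26. Leaving out 604 or 664 left a lone heifer in the arm, and few or none passed. For the direct test of their day change, 32 to 36 passed under the other tools, scaling and no filter, 6 with no replicate block, and 15 to 15 without either heifer, all 15 shared with the 35. Without a filter *MCM2* no longer passed there (FDR 0.0678). For D105 and the day change, the share of all genes called by the other tools, upper-quartile scaling or no filter is not given here. The counts under those alternatives therefore do not show whether the 45 genes stood out from all genes. For this pair on D105, the paper reported far more genes by DESeq2 than by edgeR. The AI day difference of the score was -0.23 on the scale of z-scored genes, another unit. With single heifers left out, added after the data were seen, the day difference of the score ran from -0.11 to -0.04 in AI, from -0.15 to 0.006 in IVP-Normal and from -0.28 to -0.11 in IVP-LOS on the main scale. Of the values of single named genes, 909 kept their side of the threshold, 44 no longer passed and 1 passed newly. The last was *MCM2* between days in the AI group, with the block. No value that passed in either fit reversed its direction. Changes of direction in values that passed in neither fit were not counted apart. The cause of these shifts was not tested, beyond the fewer samples or genes that an alternative used. The planned repeat on the Ensembl count table was not run, because the reference used here pairs no Ensembl identifiers with symbols. With 2 heifers in 1 arm, precision is limited by animals rather than by reads.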
